A study of Mus musculus with 12 samples.

Results

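The RNA levels of 47 genes of the G1/S transition and of DNA replication were followed in 12 libraries of a mouse microglial cell line. The genes were chosen by function, as a list of symbols, from the 55416 gene identifiers of the count table. Each of the 47 symbols matched 1 identifier, and all 47 passed the filter on low counts that left 26420 genes for testing. The mean level of a member over the 12 libraries ran from 5.69 CPM (counts for each M counts in a library after TMM scaling) for Fen1 to 336 CPM for Mcm6, with a median of 46.5 CPM.

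The cells were SIM-A9, a microglial line that the labels give as C57BL/6 in strain, grown in medium with serum. The wild-type line (WT) was set against the H14 line, which is labelled as a knockout of MOK (KO), a protein kinase. Each line was given medium alone or lipopolysaccharide (LPS), the ligand of the receptor TLR4 from the outer membrane of bacteria, for 5 h at a dose of 1 µg/mL. There were 3 libraries in each of the 4 groups, made from total RNA depleted of ribosomal RNA. The labels call them biological replicates but do not say whether they came from separate cultures, and a p-value here therefore reflects only the spread among these samples, which may be technical. H14 is the only KO line, so the loss of MOK cannot be told apart from whatever else sets the H14 line apart.

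DNA replication is prepared in G1, when the origin recognition complex, CDC6 and CDT1 load the MCM2 to MCM7 helicase onto DNA. Entry into S phase follows when cyclin E with its kinase and the kinase CDC7 with its activator DBF4 start the helicase together with CDC45, the GINS complex and MCM10, after which polymerases, the sliding clamp PCNA and its loader copy the DNA. Many of these genes are known targets of the E2F transcription factors, which the retinoblastoma family holds back outside S phase, while genes of mitosis are read mainly through CCAAT boxes and a cell cycle homology region. Macrophages are known to slow their proliferation when activated by LPS.

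Promoters are shown first because an E2F motif was more frequent in the members than in all genes. Promoter sequences came from RefSeq (build GRCm38.p6, an older build than the GRCm39 of the counts), as 300 bases with 250 before and 50 after the start of transcription. Of the 47 members, 39 were in that table. The E2F motif was searched as TTTGGCGC, TTTCCCGC, TTTGCCGC or TTTCGCGC on both strands, and on opposite strands these forms can overlap one another. It was found in 15 of the 39 members (38.5%), in 3 of 39 genes of a G2/M and mitosis list (7.69%) and in 704 of all 27025 genes (2.6%), or 744 of all 32851 promoters (2.26%). The cell cycle homology region (TTTGAA or TTCGAA, both strands) was more frequent in the G2/M genes, with 9 of 39 members (23.1%), 30 of 39 G2/M genes (76.9%) and 21.7% of all genes. The CCAAT box (CCAAT, both strands) was found in 24 of 39 members (61.5%), 29 of 39 G2/M genes (74.4%) and 41.1% of all genes. These matches are letters in a window, not measured binding.

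The 160 bases before the start are printed for 6 members with an E2F match there, 5′ to 3′ in the direction of the gene, with the E2F matches in capitals. Cdc6, Gins3 and Mcm5 are shown because they fell under LPS in both lines, and Mcm6, Orc1 and Cdc25a because they passed the test for LPS in neither with all libraries in the fit (Mcm6 was called lower in KO without KO LPS replicate 2).
Cdc6, chr11:98907991-98908150, plus strand: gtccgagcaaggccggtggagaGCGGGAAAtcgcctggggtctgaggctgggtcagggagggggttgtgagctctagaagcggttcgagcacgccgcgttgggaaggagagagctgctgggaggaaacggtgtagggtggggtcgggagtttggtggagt
Gins3, chr8:95633399-95633558, plus strand: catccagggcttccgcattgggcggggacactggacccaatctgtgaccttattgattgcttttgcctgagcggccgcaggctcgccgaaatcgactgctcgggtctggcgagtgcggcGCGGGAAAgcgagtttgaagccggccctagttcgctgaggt
Mcm5, chr8:75109349-75109508, plus strand: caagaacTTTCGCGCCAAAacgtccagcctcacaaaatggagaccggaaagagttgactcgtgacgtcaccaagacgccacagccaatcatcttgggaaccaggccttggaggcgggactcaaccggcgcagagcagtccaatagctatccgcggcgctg
Mcm6, chr1:128359706-128359865, minus strand: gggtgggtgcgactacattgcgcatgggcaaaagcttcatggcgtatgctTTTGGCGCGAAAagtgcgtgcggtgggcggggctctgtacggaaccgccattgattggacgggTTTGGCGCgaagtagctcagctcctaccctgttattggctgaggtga
Orc1, chr4:108579294-108579453, plus strand: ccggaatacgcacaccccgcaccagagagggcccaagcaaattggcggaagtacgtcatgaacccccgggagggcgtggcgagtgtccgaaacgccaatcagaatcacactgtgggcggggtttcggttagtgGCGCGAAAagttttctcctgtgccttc
Cdc25a, chr9:109875419-109875578, plus strand: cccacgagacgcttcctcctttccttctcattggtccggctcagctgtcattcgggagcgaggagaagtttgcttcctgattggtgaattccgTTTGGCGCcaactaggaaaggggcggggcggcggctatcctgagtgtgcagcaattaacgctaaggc
The match began 138 bases before the start in Cdc6, 41 in Gins3, 27 in Orc1 and 67 in Cdc25a. Mcm5 and Mcm6 each held a pair of overlapping matches on opposite strands, at 153 and 149 bases and at 110 and 106 bases, and Mcm6 held a further one at 47 bases. These 6 members were chosen by their match and by their LPS calls, so they cannot show whether a match goes with a fall.

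Total counts were 39.7 to 72.9 M per library. Mok was counted in every library, with 3.21 to 3.52 CPM in WT medium, 2.17 to 2.83 CPM in WT LPS, 1.93 to 2.58 CPM in KO medium and 1.3 to 1.7 CPM in KO LPS. Counts of a whole gene cannot show an edit in those transcripts. Of the microglial markers, Csf1r, Cd68, Ptprc, Tyrobp, Spi1 and Trem2 had group means of 35.4 CPM or more, while P2ry12, Sall1, Siglech, Fcrls and C1qa had group means under 1 CPM. Some microglial genes differed between the lines: Itgam was at 18.9 to 24.9 CPM in WT and 3.25 to 3.89 CPM in KO in medium, with KO lower by -2.51 ± 0.16 in medium (adjusted p = 1.22e-06) and -3.04 ± 0.16 under LPS (adjusted p = 2.4e-07). C1qb was lower in KO by -3.92 and -4.15, C1qc by -3.36 and -3.84 and Csf1r by -0.70 and -0.55. Other microglial markers went the opposite way in medium. Gpr34 was higher in KO by 1.71 (adjusted p = 0.00749), P2ry13 by 1.30 (0.00669) and Tmem119 by 0.63 (0.0464). Their KO medium means were 0.801, 4.13 and 5.97 CPM, and under LPS their differences of 0.78, -0.21 and -0.27 did not pass. Of 18 markers tested, 3 were higher and 5 lower in KO in medium and 0 and 4 under LPS, and the part of this in the line differences below was not tested. The shares in medium were 16.7% and 27.8%, against 6.88% and 12.3% of all genes. Under LPS they were 0% and 22.2%, against 7.87% and 12.7%. The summed level of 20 microglial markers was 1165 to 1386 CPM in WT medium, 1461 to 1704 CPM in WT LPS, 809 to 1171 CPM in KO medium and 1063 to 1479 CPM in KO LPS. The 8 fibroblast and endothelial markers summed to at most 4.52 CPM and the 8 neuron markers to at most 10.7 CPM in any library, and the fibroblast gene Dcn had a group mean of at most 0.0836 CPM. The 8 oligodendrocyte markers summed to 32.3 to 36.9 CPM in WT medium, 28.5 to 32.7 CPM in WT LPS, 44.6 to 48.3 CPM in KO medium and 24.1 to 31.2 CPM in KO LPS, with Mog under 0.1 CPM in each group mean. Mbp was higher in KO, at 19 to 20.9 CPM against 7.56 to 9.71 CPM in medium (1.22 ± 0.14, adjusted p = 0.000113) and by 1.15 ± 0.14 under LPS (adjusted p = 0.000138). Sox10 was higher by 1.19 in medium (adjusted p = 0.0229), against 0.05 under LPS. Cnp went the other way, at -0.34 in medium (adjusted p = 0.147) and -0.87 under LPS (adjusted p = 0.00208). Of 7 such markers tested, 2 were higher and 0 lower in medium (28.6% and 0%). Under LPS 1 was higher and 1 lower (14.3% each). The all-gene shares are those given above. The part of these markers in the line differences was not tested either. The 7 astrocyte markers summed to 68.6 to 189 CPM, nearly all of it Aldoc, a glycolytic enzyme.

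2 features of the libraries touch the results. The members shifted together between replicates: KO LPS replicate 2 was the highest of its group for 45 of the 47 members and for 41 of 46 G2/M genes, against 37.1% of all genes tested, and WT LPS replicate 3 for 42 and 36, against 33.2%. WT LPS replicate 2 was the lowest of its group for 41 members, WT medium replicate 2 for 39 and KO LPS replicate 1 for 38. The share of all genes that were lowest in these libraries is not given here, so these counts alone are no result about the members. The spread of the members' mean log2 CPM was widest in KO LPS, with an SD of 0.21 against 0.03 to 0.10 in the other groups. Identifiers with no symbol took 10.37% of the counts of KO LPS replicate 2, and 4.86% to 8.16% in each other library. Processed pseudogenes took 12.76% to 14.26% of counts in the KO medium libraries, 6.58% to 13.05% in WT medium, 6.28% to 7.05% in WT LPS and 6.64% to 7.35% in KO LPS. The LPS comparison in KO and the comparison of the lines under LPS are therefore also given without KO LPS replicate 2. That library was picked out by the members' own levels, so changes gained by leaving it out are no independent support.

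LPS against medium showed how the G1/S and replication genes moved in each line. In WT cells 24 of the 47 members fell and 1, Mcm10, rose, with a median log2 fold change of -0.32 against -0.07 over all genes tested (edgeR quasi-likelihood test, Benjamini-Hochberg adjusted p under 0.05). Over all 26420 genes, 16.3% fell and 16.3% rose, and among the 9486 protein-coding genes at or above the lowest member's mean level 15% fell. In KO cells 29 members fell and 1, Dbf4, rose, with a median of -0.33 against -0.03 over all genes, where 26.8% fell and 25.3% rose. Among protein-coding genes at that level 14.5% fell in KO. In bulk RNA, a smaller share of cells in S phase and less of these RNAs per cell cannot be told apart.

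The 24 and 29 calls had 21 members in common, which is 87.5% of the WT calls and 72.4% of the KO calls. The 2 comparisons contrast different libraries but share a single fit and estimate of the spread, so they are not independent. The same overlap over all genes is not given here, and 26.8% of all genes fell in KO. Ccne1, Ccne2 and Rfc5 were called lower in WT alone, and Chaf1b, Prim2, Mcm3, Gins2, Pola2, Gins1, Pola1 and Pcna in KO alone, which does not show that the lines differ for these genes. No member was called lower in one line and higher in the other. Members called in neither line in either direction were Orc1, Orc6, Mcm4, Mcm6, Cdc45, Rfc3, Rfc4, Fen1, Lig1, Rrm1, Rrm2, Tyms and Cdc25a. Of these, Mcm4, Mcm6, Cdc45, Rrm1, Rrm2 and Tyms were called lower in KO without KO LPS replicate 2, as were Ccne1 and Ccne2.

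**Figure D1:**
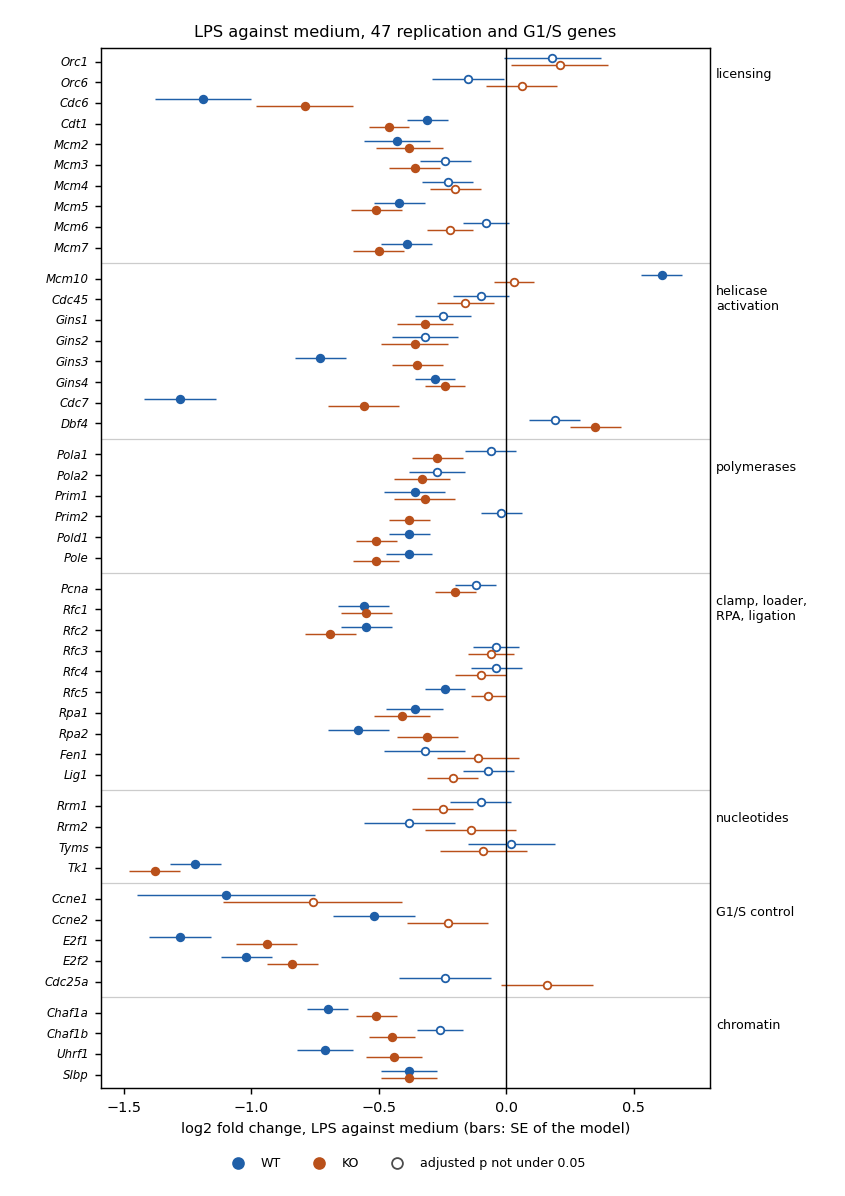
Log2 fold change of each of the 47 members under LPS against medium in WT (blue) and KO (orange), grouped by role; bars are the standard error of the model and open circles did not pass an adjusted p of 0.05. Most points lie left of 0, with Cdc7, E2f1, Tk1 and Cdc6 farthest to the left in WT at -1.28 to -1.19 and Mcm10 at 0.61 to the right.

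The G1/S control genes had the lowest median of the 7 roles in both lines, -1.02 in WT and -0.76 in KO. Of these 5 genes, 4 fell in WT and 2 in KO. The KO median is the value of Ccne1, which was not called there. E2f1, an activating E2F factor, was at 60.8, 57.4 and 62.6 CPM in WT medium and at 24.6, 23.4 and 26.5 CPM in WT LPS. In KO it was at 47.4, 50.3 and 48.6 CPM in medium and at 21.2, 31.4 and 23.9 CPM under LPS. Every LPS library of either line lay below every medium library, and the KO medium libraries lay below those of WT. E2f1 fell by 1.28 ± 0.12 (SE) on the log2 scale in WT (adjusted p = 1.35e-05) and by 0.94 ± 0.12 in KO (adjusted p = 0.000153). E2f2, the second activating factor of the list, went from 48.2 to 55.8 CPM in WT medium down to 24.5 to 28.0 CPM in WT LPS, and from 37.3 to 42.1 CPM down to 19.0 to 23.9 CPM in KO. E2f2 fell by 1.02 ± 0.10 in WT (adjusted p = 1.91e-05) and by 0.84 ± 0.10 in KO (adjusted p = 8.96e-05).

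The E-type cyclins, which activate CDK2 at S phase entry, were less certain. Ccne1 stood at 15.4, 17.6 and 16.2 CPM in WT medium and at 7.98, 6.46 and 8.50 CPM in WT LPS. Its KO libraries spread widely, with 6.51, 12.9 and 7.38 CPM in medium and 3.13, 8.55 and 4.12 CPM under LPS, and replicate 2 was the high one in both groups. Ccne1 fell by 1.10 ± 0.35 in WT (adjusted p = 0.0327), while in KO the change was -0.76 ± 0.35 (adjusted p = 0.0889). Ccne2 fell by 0.52 ± 0.16 in WT (adjusted p = 0.026) and its change in KO was -0.23 ± 0.16 (adjusted p = 0.247). Cdc25a, the phosphatase that removes the inhibitory phosphate from CDK2, showed changes of -0.24 ± 0.18 in WT and 0.16 ± 0.18 in KO that did not pass the test.

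Of the 10 licensing genes, 5 fell in WT and 6 in KO. Cdc6, the ATPase that loads the helicase, had the largest fall of this role in both lines. It was at 35.6, 32.1 and 33.0 CPM in WT medium and at 15.0, 13.3 and 16 CPM in WT LPS, with no overlap. KO medium libraries were at 29.6, 30.4 and 33.6 CPM and KO LPS libraries at 14, 25.3 and 14.9 CPM, with replicate 2 far above the other two. Cdc6 fell by 1.19 ± 0.19 in WT (adjusted p = 0.000627) and by 0.79 ± 0.19 in KO (adjusted p = 0.00546). Cdt1, its partner in loading, fell by 0.31 ± 0.08 in WT (adjusted p = 0.016) and by 0.46 ± 0.08 in KO (adjusted p = 0.00152).

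The MCM2 to MCM7 subunits form 1 ring with 1 copy of each, and their RNAs moved unequally. Mcm5 was at 194 to 210 CPM in WT medium and 135 to 166 CPM in WT LPS, and at 226 to 252 CPM and 155 to 193 CPM in KO, with no overlap in either line. Mcm5 fell by 0.42 ± 0.10 in WT (adjusted p = 0.0102) and by 0.51 ± 0.10 in KO (adjusted p = 0.00257). Mcm7 fell by 0.39 in WT and 0.50 in KO, and Mcm2 by 0.43 ± 0.13 in WT (adjusted p = 0.026) and 0.38 ± 0.13 in KO (adjusted p = 0.0285). Mcm3 fell in KO alone, by 0.36, against -0.24 in WT. Mcm6, the most abundant member by reads, had changes of -0.08 in WT and -0.22 in KO, and Mcm4 of -0.23 and -0.20, none of which passed the test. Of the origin recognition subunits, Orc1 (0.18 in WT, 0.21 in KO) and Orc6 (-0.15 and 0.06) did not pass either. Within each library the log2 ratio of Mcm2 to Mcm6 counts, which no scaling touches, was -0.99 to -0.93 in WT medium and -1.38 to -1.20 in WT LPS. In KO it was -0.77 to -0.51 in medium and -0.95 to -0.65 under LPS, where the ranges overlapped.

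Among the 8 genes of helicase activation, 3 fell and 1 rose in WT, and 5 fell and 1 rose in KO. Cdc7 and Dbf4 encode the catalytic and the activating subunit of 1 kinase, and they moved apart. Cdc7 was at 37.7, 37.6 and 46.8 CPM in WT medium and 15.8, 16.6 and 17.7 CPM in WT LPS, and at 23.3, 26.3 and 25.6 CPM in KO medium and 14.8, 21.2 and 14.8 CPM in KO LPS. WT medium was the group that stood above the other 3. Cdc7 fell by 1.28 ± 0.14 in WT (adjusted p = 4.29e-05) and by 0.56 ± 0.14 in KO (adjusted p = 0.00712). Dbf4 was at 69.9 to 76.9 CPM in WT medium and 79.9 to 85.4 CPM in WT LPS, and at 66.5 to 76.9 CPM and 80.8 to 105 CPM in KO, above medium in every LPS library of its own line. Dbf4 rose by 0.35 ± 0.10 in KO (adjusted p = 0.0102), and its change in WT was 0.19 ± 0.10 (adjusted p = 0.153). The KO call of Dbf4 was lost without KO medium replicate 1 (adjusted p = 0.0753) or replicate 3 (0.0605), with library size alone as the scaling (0.10, adjusted p = 0.458), with no filter (0.0811) and with protein-coding genes only (0.20, adjusted p = 0.096), and with the pseudogene covariate.

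Because the ratio of 2 genes within a library needs no scaling, the log2 ratio of Cdc7 to Dbf4 counts was computed for each library. It was -0.93, -0.90 and -0.72 in WT medium and -2.40, -2.26 and -2.27 in WT LPS. In KO it was -1.51, -1.55 and -1.45 in medium and -2.45, -2.30 and -2.56 under LPS. The medium groups of the lines lay apart and both LPS groups lay lower, with ranges that overlapped.

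Mcm10, which helps to start the loaded helicase and recruits polymerase alpha, was the 1 member that rose in WT. It was at 68.9, 69.3 and 71.8 CPM in WT medium and at 107, 104 and 108 CPM in WT LPS. The KO libraries were at 53.2, 54.5 and 54.1 CPM in medium and at 50.4, 61.8 and 53.3 CPM under LPS, below every WT library. Mcm10 rose by 0.61 ± 0.08 in WT (adjusted p = 9.35e-05), under each alternative setting that was run, and its change in KO was 0.03 ± 0.08 (adjusted p = 0.747). With library size alone the KO value was -0.23 (adjusted p = 0.0384). Against Cdc45, a helicase cofactor, the log2 count ratio went from 0.72 to 0.79 in WT medium up to 1.33 to 1.57 in WT LPS, and from 0.28 to 0.37 up to 0.42 to 0.57 in KO.

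Of the 4 subunits of GINS, which clamps onto the helicase with CDC45, Gins3 had the largest change in WT, and Gins2 (-0.36) and Gins3 (-0.35) were nearly equal in KO. Gins3 was at 17.0 to 19.4 CPM in WT medium and 9.84 to 12.2 CPM in WT LPS, and at 18.2 to 19.5 CPM and 14.5 to 15.6 CPM in KO, with no overlap in either line. Gins3 fell by 0.73 ± 0.10 in WT (adjusted p = 0.000186) and by 0.35 ± 0.10 in KO (adjusted p = 0.0128). Gins4 fell by 0.28 in WT and 0.24 in KO. Gins1 and Gins2 fell in KO by 0.32 and 0.36, and their values in WT were -0.25 and -0.32 without passing the test. Cdc45 showed -0.10 in WT and -0.16 in KO, neither of which passed.

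**Figure D2:**
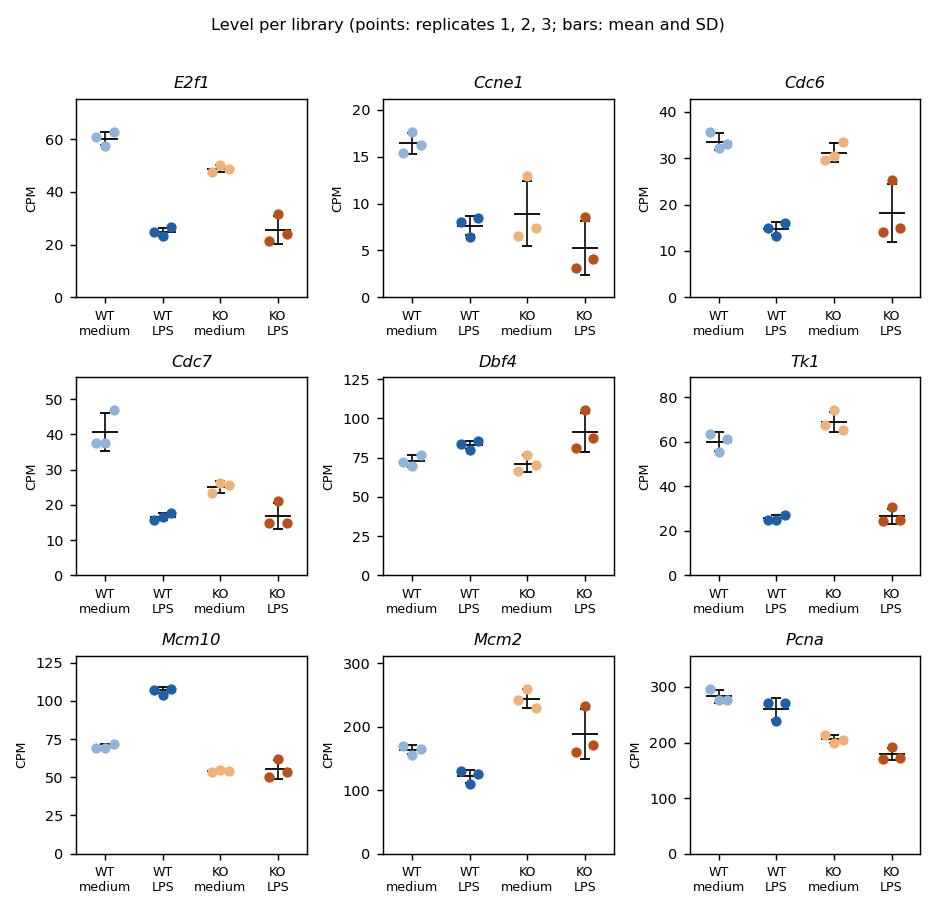
CPM of 9 members in each library, by group, with points for replicates 1, 2 and 3 and bars for the mean and SD; each vertical axis starts at 0. E2f1, Cdc6 and Tk1 drop in both lines, Cdc7 is highest in WT medium, the Dbf4 points under LPS lie above those in medium (called in KO only), Mcm10 rises in WT to 104 to 108 CPM, and KO LPS replicate 2 is the highest point of its group in all 9 panels.

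The 6 polymerase and primase genes all fell in KO, and 3 of them fell in WT. Pole, the catalytic subunit of the leading strand polymerase, went from 109 to 113 CPM in WT medium down to 82.7 to 89.7 CPM in WT LPS, and from 132 to 149 CPM down to 89.2 to 115 CPM in KO. Pole fell by 0.38 ± 0.09 in WT (adjusted p = 0.0107) and by 0.51 ± 0.09 in KO (adjusted p = 0.00171). Pold1, the catalytic subunit of the lagging strand polymerase, fell by 0.38 ± 0.08 in WT (adjusted p = 0.00381) and by 0.51 ± 0.08 in KO (adjusted p = 0.000561). Prim1, the catalytic primase subunit, fell by 0.36 in WT and 0.32 in KO. Its partner Prim2 was at 26.3 to 28.6 CPM in WT medium and 25.9 to 28.1 CPM in WT LPS, which overlap almost entirely, with a change of -0.02 ± 0.08. In KO it went from 30.3 to 33.1 CPM down to 22.9 to 26.9 CPM and fell by 0.38 ± 0.08 (adjusted p = 0.00322). Pola1 and Pola2, subunits of polymerase alpha, fell in KO by 0.27 and 0.33, against -0.06 and -0.27 in WT.

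Of 10 genes for the clamp, its loader, single-strand binding and joining of Okazaki fragments, 5 fell in each line. The large loader subunit Rfc1 fell by 0.56 ± 0.10 in WT (adjusted p = 0.00109) and 0.55 ± 0.10 in KO (adjusted p = 0.00111). Rfc2 was at 79.8 to 92.0 CPM in WT medium and 53.2 to 65.7 CPM in WT LPS, and at 108 to 132 CPM and 73 to 79.3 CPM in KO. Rfc2 fell by 0.55 ± 0.10 in WT (adjusted p = 0.0017) and by 0.69 ± 0.10 in KO (adjusted p = 0.000361), which is the largest fall of this role in KO, as that of Rpa2 is in WT. The other loader subunits moved little, with Rfc3 at -0.04 and -0.06, Rfc4 at -0.04 and -0.10, and Rfc5 at -0.24 in WT, where it was called, and -0.07 in KO.

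Rpa2 and Rpa1, subunits of the protein that coats single-stranded DNA, both fell in both lines, Rpa2 by 0.58 ± 0.12 in WT (adjusted p = 0.00287) and 0.31 ± 0.12 in KO (adjusted p = 0.0414), and Rpa1 by 0.36 and 0.41. Pcna, the sliding clamp, was at 277 to 297 CPM in WT medium and 238 to 272 CPM in WT LPS, a change of -0.12 ± 0.08 that did not pass (adjusted p = 0.252). The KO libraries were at 199 to 213 CPM and 171 to 192 CPM, and fell by 0.20 ± 0.08 (adjusted p = 0.0483). Of the Okazaki genes, the flap nuclease Fen1 (-0.32 in WT, -0.11 in KO) and the ligase Lig1 (-0.07 and -0.21) did not pass.

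Tk1 alone of the 4 nucleotide supply genes fell with all libraries in the fit, and it did so in both lines, while without KO LPS replicate 2 all 4 fell in KO. Tk1, which salvages thymidine, was at 63.5, 55.4 and 61.4 CPM in WT medium and 25.0, 25.0 and 27.2 CPM in WT LPS. In KO it was at 67.7, 74.1 and 65.4 CPM in medium and 24.4, 30.6 and 24.8 CPM under LPS, so the 6 LPS libraries lay close together, far below the 6 medium libraries. Tk1 fell by 1.22 ± 0.10 in WT (adjusted p = 3.48e-06) and by 1.38 ± 0.10 in KO (adjusted p = 1.47e-06). Tyms, which makes thymidylate from deoxyuridylate, was at 38.4 to 42.3 CPM in WT medium and 39.4 to 41.2 CPM in WT LPS, with changes of 0.02 ± 0.17 in WT and -0.09 ± 0.17 in KO. The ribonucleotide reductase subunits Rrm1 (-0.10 ± 0.12 in WT, -0.25 ± 0.12 in KO) and Rrm2 (-0.38 ± 0.18 and -0.14 ± 0.18) did not pass the test. Rrm2 was at 116 to 124 CPM in WT medium and 83.5 to 101 CPM in WT LPS, without overlap, and its KO LPS libraries ran from 70.1 to 123 CPM.

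All 4 genes of chromatin and histone supply fell in KO and 3 of them in WT. Uhrf1, which carries DNA methylation over to the new strand, went from 255 to 286 CPM in WT medium down to 152 to 179 CPM in WT LPS, and from 318 to 332 CPM down to 205 to 280 CPM in KO. Uhrf1 fell by 0.71 ± 0.11 in WT (adjusted p = 0.00051) and by 0.44 ± 0.11 in KO (adjusted p = 0.00633). Chaf1a, a subunit of the histone chaperone that follows the fork, fell by 0.70 ± 0.08 in WT (adjusted p = 5.23e-05) and by 0.51 ± 0.08 in KO (adjusted p = 0.000545). Its partner Chaf1b fell by 0.45 ± 0.09 in KO (adjusted p = 0.00304) and was at -0.26 ± 0.09 in WT (adjusted p = 0.0514). Slbp, which binds the stem-loop of histone RNAs, fell by 0.38 ± 0.11 in WT (adjusted p = 0.0261) and by 0.38 ± 0.11 in KO (adjusted p = 0.0161).

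Which members were called depended on single libraries for the smaller changes. In WT, 15 of the 24 falls and the rise of Mcm10 held without any 1 library and under each alternative. 1 of those alternatives, the limit on the pseudogene share, kept a single WT medium library, assumed to vary like the other groups, and the count is 15 with or without it. The other 9 (Ccne1, Ccne2, Mcm2, Slbp, Prim1, Rpa1, Cdt1, Gins4 and Rfc5) were each lost without WT LPS replicate 1 (adjusted p = 0.0501 to 0.118) and without WT LPS replicate 2 (0.0668 to 0.107), which left 15 members called lower. Ccne1, Ccne2, Mcm2, Prim1 and Rpa1 were also lost without WT LPS replicate 3 (0.0513 to 0.105), Ccne1 without WT medium replicate 2 (0.0621), Prim1 without WT medium replicate 1 (0.0551) and Rfc5 without KO LPS replicate 3 (0.0532).

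In KO, 18 of the 29 falls held without each library in turn. The other 11 (Slbp, Mcm2, Mcm3, Gins1, Gins2, Gins4, Pola1, Pola2, Prim1, Rpa2 and Pcna) were lost without KO LPS replicate 1 (adjusted p = 0.0589 to 0.174), and all but Gins4 without KO LPS replicate 3 (0.0526 to 0.186). Of these, Prim1 was also lost without WT LPS replicate 1, 2 or 3 or KO medium replicate 2 or 3, Pola1 without WT LPS replicate 1, 2 or 3 or KO medium replicate 1, Pcna without WT LPS replicate 1 or 3, Rpa2 without WT LPS replicate 1 or KO medium replicate 2, Gins2 without WT LPS replicate 1, Pola2 without KO medium replicate 2 and Gins1 without KO medium replicate 3 (0.051 to 0.0808). Leaving out KO LPS replicate 1 or 3 left 18 and 19 members called lower, and leaving out KO LPS replicate 2 gave 37, with a median of -0.45. With the processed pseudogene percentage added as a covariate (log2), 7 members fell in KO (Tk1, E2f1, E2f2, Rfc2, Cdc7, Pold1 and Cdt1), with a median of -0.47, and 18 fell in WT, with a median of -0.39. In KO that share was 12.76% to 14.26% in medium and 6.64% to 7.35% under LPS. The covariate and LPS can therefore hardly be told apart within KO, and the lost calls there do not show that the falls are absent. With library size alone 43 members fell in WT, where the whole table split into 2104 genes higher and 9985 lower with a median of -0.40, and 40 in KO, with 4182 higher and 10422 lower and a median of -0.29. Relative to the median of all genes the members' median was -0.25 in WT and -0.30 in KO, and with library size alone -0.26 and -0.30. It was -0.39 and -0.45 with protein-coding genes only, and -0.42 and -0.52 with the covariate.

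Without KO LPS replicate 2 all 29 falls and the rise of Dbf4 (0.25, adjusted p = 0.0305) in KO were called, and 8 further members fell: Mcm4, Mcm6, Cdc45, Rrm1, Rrm2, Tyms, Ccne1 and Ccne2. Ccne1 was then at -1.29 ± 0.28 (adjusted p = 0.00577), Rrm2 at -0.44 ± 0.09 (0.00602), Ccne2 at -0.43 ± 0.13 (0.0224) and Tyms at -0.35 ± 0.11 (0.0285). The change of Cdc6 was -1.10 ± 0.10 instead of -0.79, and that of Mcm2 -0.55 instead of -0.38. Cdc25a went from 0.16 to -0.13 and Orc1 from 0.21 to -0.09, neither called. Members that passed in neither line then numbered 7: Orc1, Orc6, Rfc3, Rfc4, Fen1, Lig1 and Cdc25a. Since KO LPS replicate 2 was chosen by the members' own levels, deeper falls without it are no independent support.

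The members were then set against 46 genes of G2/M and mitosis, which are read later in the cell cycle. In WT 10 of the 46 rose (21.7%) and 7 fell (15.2%) under LPS, against 16.3% and 16.3% of all genes. In KO 17 rose (37%) and 7 fell (15.2%), against 25.3% and 26.8% of all genes. The medians were 0.13 in WT and 0.07 in KO. Risers included Prc1, a spindle midzone protein, at 0.61 in WT and 0.83 in KO. Cdc25b, a phosphatase for entry into mitosis, fell by 0.68 and 0.70, and Foxm1, a transcription factor of mitotic genes, by 0.39 and 0.38. In a single library the mean log2 CPM of the members minus that of the G2/M genes hardly depends on how the library was scaled. It was -0.48, -0.49 and -0.54 in WT medium and -0.96, -0.99 and -0.92 in WT LPS, and -0.33, -0.33 and -0.38 in KO medium and -0.82, -0.72 and -0.86 in KO LPS. The 6 LPS libraries lay below the 6 medium libraries, and within either treatment the KO libraries lay above those of WT. KO LPS replicate 2, which was the highest for nearly all members, was also the highest of its group by this measure, at -0.72 against -0.82 and -0.86.

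**Figure D3:**
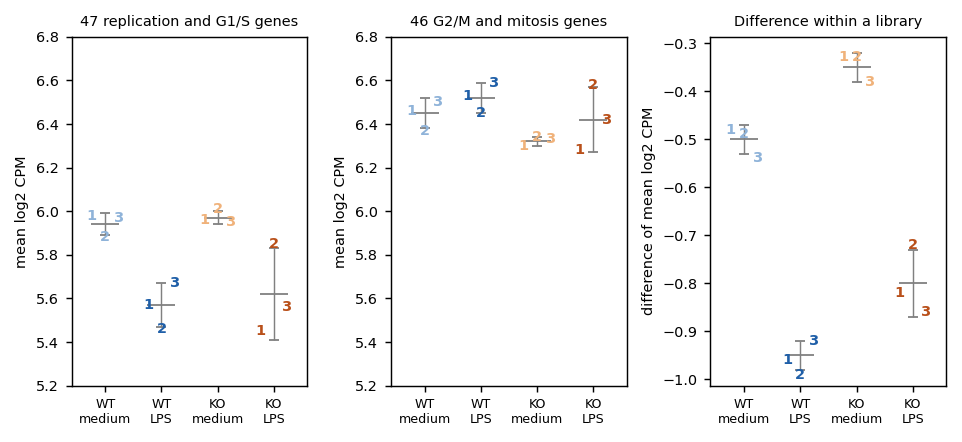
Mean log2 CPM of the 47 members (left), of 46 G2/M and mitosis genes (middle) and their difference within each library (right); digits are replicate numbers and bars the mean and SD of the group. The members' level drops under LPS in both lines while the G2/M level does not, and the difference goes from -0.50 to -0.95 in WT and from -0.35 to -0.80 in KO.

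Other genes of the pathway gave a mixed picture. Of 52 further replication factors, 8 rose and 22 fell in WT and 9 rose and 21 fell in KO, with medians of -0.17 and -0.14. In WT this was 15.4% and 42.3% of them, against 16.3% and 16.3% of all genes. In KO it was 17.3% and 40.4%, against 25.3% and 26.8%. Ung, the glycosylase that removes uracil from DNA, was at 36.0 to 39.4 CPM in WT medium and 10.4 to 12 CPM in WT LPS and fell by 1.76 ± 0.17 in WT (adjusted p = 1.67e-05) and by 1.14 ± 0.17 in KO (adjusted p = 0.000409). Wdhd1, which links the helicase to polymerase alpha, fell by 1.31 and 0.94, Dna2, a flap nuclease, by 1.00 in WT, and Pole2, the second subunit of the leading strand polymerase, by 0.82 in KO. Mtbp, a partner of Treslin in origin firing, rose by 0.58 in WT and 0.69 in KO, and the ribonucleotide reductase subunit Rrm2b by 0.66 in WT. Orc4 and Orc2, subunits of the origin recognition complex, rose in KO by 0.63 and 0.56.

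Upstream of the members, 41 of 42 regulators of G1/S were tested. In WT 12 rose and 12 fell, and in KO 19 rose and 12 fell, with medians of 0.04 and 0.19. The WT shares were 29.3% and 29.3%, against 16.3% and 16.3% of all genes. The KO shares were 46.3% and 29.3%, against 25.3% and 26.8%. Cdkn1a, which encodes the CDK inhibitor p21, was at 121, 112 and 101 CPM in WT medium and 522, 435 and 452 CPM in WT LPS. The KO libraries were at 53.9, 45.5 and 51.0 CPM in medium and 406, 184 and 408 CPM under LPS. Here KO LPS replicate 2 was the low library, while it was the high one for the members. Cdkn1a rose by 2.07 ± 0.25 in WT (adjusted p = 9.49e-05) and by 2.73 ± 0.26 in KO (adjusted p = 1.6e-05). The next largest rises in KO were those of the growth-promoting factors Myc (2.59 ± 0.68, adjusted p = 0.00974) and Mycn (2.28 ± 0.61, adjusted p = 0.0108). Myc was at 75.8, 23.2 and 23.8 CPM in KO medium and 274, 204 and 259 CPM in KO LPS, and at 115, 18.1 and 148 CPM in WT medium and 216, 189 and 195 CPM in WT LPS, where the change of 1.09 did not pass (adjusted p = 0.213). In WT, Mdm2, the ubiquitin ligase for p53, rose by 1.95 and Mxd1, a repressor of the MAX network, by 2.11, while Rbl2, a member of the retinoblastoma family, fell by 1.08. Mxd4, a relative of Mxd1, fell by 1.56 in WT and 1.60 in KO, and Tfdp2, a dimerization partner of E2F, by 1.18 and 1.22.

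Replication-dependent histone genes are used in S phase, and their RNAs, which lack poly(A) tails, are caught by total RNA libraries. The histone genes were taken by symbol (Hist1h to Hist4h), which does not show that each of them is used in S phase. Of 67 genes so named 62 were tested: none rose and 33 fell in WT under LPS, and none rose and 37 fell in KO (edgeR). The falls were 53.2% in WT and 59.7% in KO, against 16.3% and 26.8% of all genes. The copies are near-identical, with 61 of 67 sharing over 10% of their 31-mers with other genes (median 58.5%), so single copies are uncertain and the summed level is given instead. How multi-mapping reads were counted is not known, so the sum may be incomplete too. The sum was 11181, 11679 and 10938 CPM in WT medium and 9467, 8905 and 9572 CPM in WT LPS. In KO it was 15750, 16387 and 13781 CPM in medium and 12376, 11185 and 11928 CPM under LPS, so the sum was lower under LPS in each line and higher in KO than in WT in each treatment, without overlap. The summed level of the 47 members was 4052 to 4401 CPM in WT medium, 3178 to 3656 CPM in WT LPS, 4474 to 4621 CPM in KO medium and 3204 to 4110 CPM in KO LPS.

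The KO line was next set against WT within each treatment. In medium 5 members were higher and 4 lower in KO, with a median of 0.08 against 0.04 over all genes, of which 6.88% were higher and 12.3% lower. Under LPS 7 members were higher and 4 lower, with a median of 0.05 against 0.07, where 7.87% of all genes were higher and 12.7% lower. As shares of the 47 members these are 10.6% higher and 8.51% lower in medium, and 14.9% higher and 8.51% lower under LPS. With library size alone the split of all genes under LPS was 2922 higher and 2936 lower, against 2080 and 3351. Without KO LPS replicate 2, 5 members were higher and 7 lower in KO under LPS, with a median of -0.03: Rpa2 and Chaf1a were no longer called, and Gins1, Rrm2 and Ccne1 were lower.

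3 members, Mcm2, Rfc2 and Rfc5, were higher in KO in both treatments, and 2, Pcna and Mcm10, were lower in both. In medium Mcm2 was at 170, 156 and 165 CPM in WT and 242, 260 and 230 CPM in KO, and at 130, 110 and 125 CPM in WT and 160, 233 and 172 CPM in KO under LPS. Every KO library was above every WT library of its treatment. Mcm2 was higher in KO by 0.58 ± 0.13 in medium (adjusted p = 0.00853) and 0.63 ± 0.13 under LPS (adjusted p = 0.00426). Rfc2 was higher by 0.49 ± 0.10 in medium (adjusted p = 0.00538) and 0.35 ± 0.10 under LPS (adjusted p = 0.0276). Rfc5 was higher by 0.28 ± 0.08 in medium (adjusted p = 0.0242) and 0.45 ± 0.08 under LPS (adjusted p = 0.00124). Rfc2 lost its LPS call without WT LPS replicate 1 (adjusted p = 0.0856) or 2 (0.118) or KO LPS replicate 1 (0.0758) or 3 (0.103). The call of Rfc5 in medium was lost without WT medium replicate 1 (0.0709), 2 (0.0652) or 3 (0.0632) or KO medium replicate 1 (0.0855) or 3 (0.115).

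Pcna was at 297, 277 and 277 CPM in WT medium and 213, 199 and 204 CPM in KO medium, and at 271, 238 and 272 CPM in WT LPS and 171, 192 and 173 CPM in KO LPS. Its groups did not overlap in either treatment. Pcna was lower in KO by -0.46 ± 0.08 in medium (adjusted p = 0.00181) and -0.54 ± 0.08 under LPS (adjusted p = 0.000451), and both calls held under every alternative run. The log2 ratio of Pcna to Rfc5 counts, the clamp against a subunit of its loader, was 1.67 to 1.93 in the 6 WT libraries and 0.81 to 1.01 in the 6 KO libraries. Pcna shares 23.3% of its 31-mers with other genes, so its reads could be split among them.

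Mcm10 was lower in KO by -0.38 ± 0.08 in medium (adjusted p = 0.00468) and -0.95 ± 0.08 under LPS (adjusted p = 4.74e-06). Cdc7 and E2f2 were lower in KO in medium, by -0.70 ± 0.14 (adjusted p = 0.00507) and -0.44 ± 0.10 (adjusted p = 0.011), and under LPS their differences of 0.02 and -0.26 did not pass. Adding the pseudogene covariate, Cdc7 (-0.50, adjusted p = 0.101), E2f2 (-0.29, 0.238) and Mcm10 (-0.33, 0.0994) lost their calls in medium and kept their direction. In that comparison the share was 6.58% to 13.05% in WT and 12.76% to 14.26% in KO, so that 1 WT library, replicate 2, lay within the KO range.

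Of the members called in 1 treatment, Gins3 and Uhrf1 were higher in KO under LPS, by 0.47 ± 0.10 (adjusted p = 0.00511) and 0.54 ± 0.11 (adjusted p = 0.00431), and these calls held under every alternative run. Their differences in medium were 0.09 and 0.27. Under LPS Rpa2 (0.36) and Chaf1a (0.30) were higher and Pold1 (-0.32) and Chaf1b (-0.30) lower, and in medium Pole (0.34) and Mcm6 (0.28) were higher, but each of these 6 calls was lost when 1 library was left out. Pold1 was lost without KO LPS replicate 1 (adjusted p = 0.0567) or WT LPS replicate 3 (0.0571). Chaf1a was lost without WT LPS replicate 1 (0.081) or 2 (0.0858) or KO LPS replicate 2 (0.0692) or 3 (0.0554). Pole was lost without WT medium replicate 1 (0.121) or 3 (0.0657) or KO medium replicate 1 (0.114), 2 (0.0695) or 3 (0.064). Rpa2 was lost without WT medium replicate 1 or 3, WT LPS replicate 1 or 2, any KO medium replicate, or KO LPS replicate 1 or 2 (0.0547 to 0.179). Mcm6 was lost without any 1 WT medium replicate, WT LPS replicate 1 or 3, KO medium replicate 1 or 3, or KO LPS replicate 1 or 3 (0.0503 to 0.137). Chaf1b was lost without any 1 WT LPS replicate, WT medium replicate 1, KO LPS replicate 1 or 3, or KO medium replicate 1 or 3 (0.0573 to 0.169).

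Of the members with fixed statistics that were not called in medium or under LPS, Cdc6 (-0.11 and 0.29), Cdt1 (-0.00 and -0.15), Mcm5 (0.24 and 0.15), Tk1 (0.20 and 0.05), Slbp (0.18 and 0.18), Rrm2 (-0.27 and -0.03), Tyms (0.08 and -0.04), Ccne2 (0.05 and 0.35) and E2f1 (-0.31 and 0.04) covered both directions. Ccne1 had the largest difference of any member in medium, -0.88 ± 0.34, with no overlap of the groups but an adjusted p of 0.0986.

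**Figure D4:**
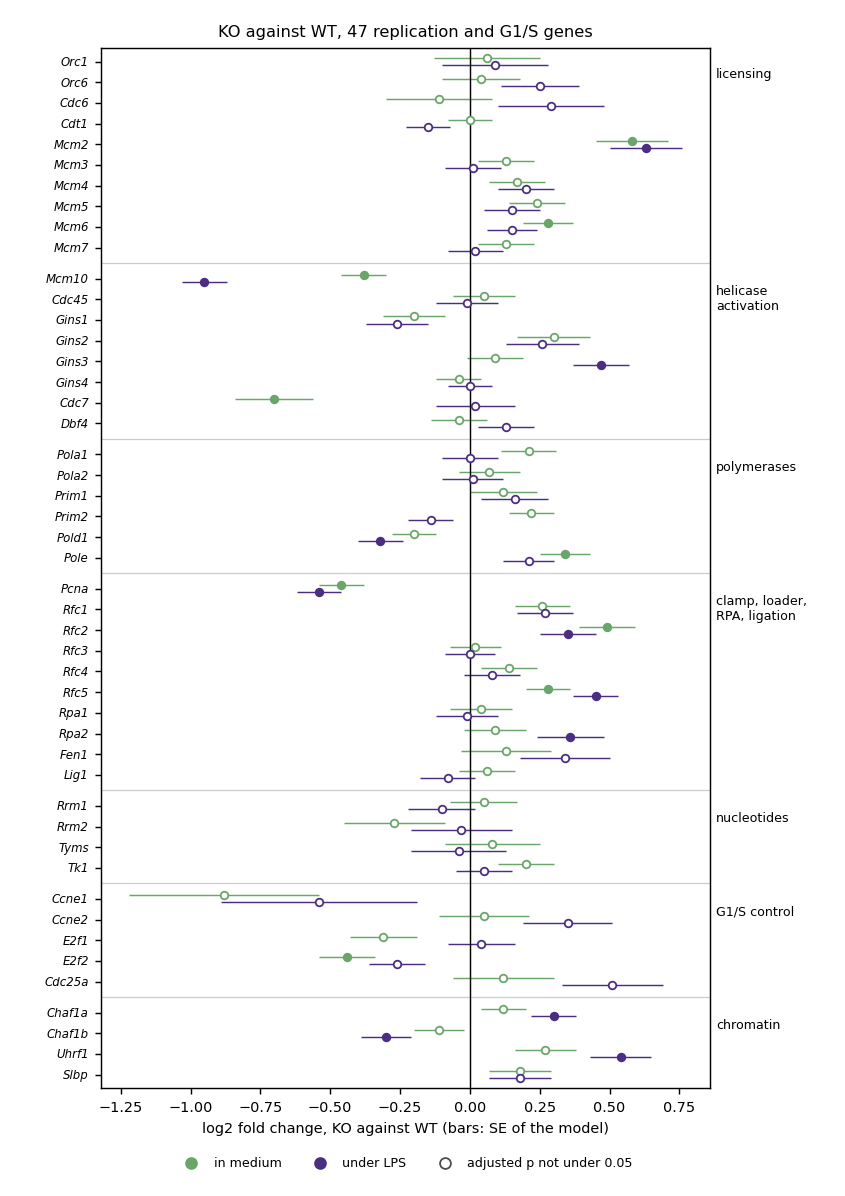
Log2 fold change of each of the 47 members in KO against WT, in medium (green) and under LPS (purple), grouped by role; bars are the standard error of the model and open circles did not pass an adjusted p of 0.05. Points scatter around 0, with Mcm2 at 0.58 and 0.63 and Pcna at -0.46 and -0.54 apart from 0 in both treatments, and Mcm10 at -0.95 under LPS.

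The last question was whether LPS moved a member differently in the 2 lines. The test of the interaction, the LPS effect in KO minus that in WT, called 1 of the 47 members, Mcm10, against 1.6% of all genes in either direction. Mcm10 had an interaction of -0.58 ± 0.11 (adjusted p = 0.0215). The interaction of Cdc7 was 0.72 ± 0.20 (adjusted p = 0.126), that of Gins3 0.39 ± 0.14 (0.246) and that of Prim2 -0.36 ± 0.11 (0.188), so these differences between lines did not pass. These 4 were the members with an unadjusted p under 0.05, and DESeq2 also called 1 member. For Cdc7 the test passed only without WT medium replicate 2 (adjusted p = 0.0375). The call of Mcm10 was lost without WT medium replicate 1 (0.0935), without WT LPS replicate 1 (0.0694), 2 (0.0518) or 3 (0.0591), without KO medium replicate 1 (0.0688), 2 (0.0534) or 3 (0.0926), and without KO LPS replicate 1 (0.0509) or 3 (0.0744), while its value stayed between -0.67 and -0.50. All 5 G1/S control genes had point values above 0 for the interaction, with a median of 0.34, and none passed the test.

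Levels of different genes were set side by side after division by length, here as CPM per kb of all annotated exons. That length joins the exons of every annotated transcript, whether or not these cells make it. It was 6956 bases for Mcm2 and 3752 for Mcm3, for example. The order of genes and the spread within a complex therefore depend in part on the annotation. In WT medium Pcna was highest at 118 CPM per kb, followed by Mcm6 at 68.3, Uhrf1 at 63.4, Mcm3 at 60.3 and Mcm5 at 50.9 CPM per kb, and Fen1 (2.41) and Orc1 (2.67) were lowest. The 6 subunits of the MCM ring spanned 23.5 CPM per kb for Mcm2 to 68.3 for Mcm6 in WT medium, and in KO medium 35.1 for Mcm2 to 83.1 for Mcm6. For E2f1 the level went from 19.1 to 7.87 CPM per kb under LPS in WT and from 15.5 to 8.08 in KO. In KO medium Mcm6 at 83.1 CPM per kb was close to Pcna at 85.7. Of the members, 4 share over 10% of their 31-mers with other genes (Mcm7, Uhrf1, Pcna and Rrm2). A further limit is that 15 members, Fen1 and Orc1 among them, overlap an exon of a gene on the opposite strand. The levels of all these members carry that uncertainty.

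The LPS response is given last by E2F match, as a description without a test. The 15 members with a match had a median log2 fold change of -0.31 in WT, with 8 called lower, and the 24 without one had a median of -0.34, with 12 called lower. In KO the medians were -0.36 and -0.31, with 10 of 15 and 13 of 24 called lower. E2f1, Cdc7, Tk1 and Ccne1, which had the largest falls in WT beside Cdc6, held none of these letters in the window.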

How the data were processed

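The authors deposited raw read counts for 12 libraries, 1 row for each Ensembl identifier. STAR 2.7.9a and featureCounts on GRCm39 are named per the submitters' processing notes, beside FastQC 0.11.9, Trimmomatic 0.39 and DESeq2 1.32.0. Whether counting used the strand, and how multi-mapping reads were handled, is not given in the sources used here. GENCODE M21 (GRCm38) gave symbols for 52135 of 55416 identifiers, and every identifier stayed in totals and tests.

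The test was edgeR 4.0.16 (R 4.3.3), with filterByExpr by group at a count minimum of 10, TMM scaling, and a robust quasi-likelihood fit of 4 group means to all 12 libraries and 26420 genes (biological coefficient of variation 0.235). It gave 5 comparisons: LPS against medium in each line, KO against WT in each treatment, and the interaction. A call is a Benjamini-Hochberg adjusted p under 0.05 across every gene tested. SE is the absolute log2 fold change divided by the square root of F. A list's level is its mean log2 CPM at a prior count of 2. The fit was also run on simulated counts, with genes drawn independently of one another, and the outcome is not given here. The members shifted together between the real replicates, so that run is no support for the calls.

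The 47 members and the gene lists were chosen with earlier results of these data known, so their directions are no independent support. Full statistics are given for 13 fixed members and, in each role, for the called members with the largest rise and fall. From the other lists, examples come from the 3 largest called changes in each direction. The alternatives were DESeq2 1.42.0, RLE scaling, scaling by library size alone, no filter on counts, a stricter one (minimum 50), a replicate block, a fit of the compared groups alone, protein-coding genes only, the log2 processed pseudogene share as a covariate, a limit of 8% on that share, and each library left out in turn.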

Additional observations from a re-analysis of the deposited data

Results flagged for a closer look

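The interaction test of the edgeR model called 423 of all 26420 genes tested (1.6%). Among the listed genes it called 1 of 47 members (2.13%), 2 of 52 further replication factors (3.85%) and 1 of 41 upstream regulators (2.44%). It called 0 of 46 G2/M genes and 0 of 62 histone genes. Counts this small, near the share of all genes, are no result about the lists. The 4 listed genes called were Mcm10, Timeless, Dck and Ccnd1. Mcm10, the 1 member among them, had a log2 difference of -0.58 ± 0.11 (SE, adjusted p = 0.0215), because it rose in WT and not in KO, and 11 of 20 alternatives lost the call with values from -0.67 to -0.50. Timeless, a replication fork protection factor, had -0.64 ± 0.10 (adjusted p = 0.011), and its levels in replicates 1, 2 and 3 were 47, 49.4 and 51.0 CPM in WT medium, 49.0, 50.9 and 55.4 CPM in WT LPS, 63.2, 65.2 and 61.7 CPM in KO medium and 39.7, 43.5 and 45.5 CPM in KO LPS. The call of Timeless was lost under 2 of 20 alternatives. Dck, which salvages deoxycytidine, had -1.30 ± 0.18 (adjusted p = 0.00512), with 23.1 to 28.2 CPM in WT medium, 39.7 to 54.2 CPM in WT LPS, 18.6 to 21.9 CPM in KO medium and 13.6 to 15.3 CPM in KO LPS. Ccnd1, cyclin D1 of the G1 phase, had 0.86 ± 0.13 (adjusted p = 0.0083), with 65.2 to 80.3 CPM in WT medium and 35.6 to 38.5 CPM in WT LPS, against 59.6 to 65.1 CPM and 53.0 to 62.9 CPM in KO. The calls of Dck and Ccnd1 held under all 20 alternatives run for this comparison.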

How the results depend on the processing

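Under RLE scaling, no filter, the stricter filter, DESeq2, the fit of the compared groups alone and protein-coding genes only, the falls under LPS numbered 20 to 34 in WT (24 in the reported fit) and 20 to 36 in KO (29). Library size alone gave 43 in WT and 40 in KO, where the median of all genes also moved, and turned the LPS value of Mcm10 in KO from 0.03 to -0.23. It left 0 members higher under LPS in KO, as did no filter, protein-coding genes only and the pseudogene covariate (1 as reported, Dbf4), and 0 lower in the interaction, as did the covariate (1 as reported). The covariate left 7 falls in KO, where the share and LPS go together, and 2 members higher and 1 lower in KO against WT in medium (5 and 4). In that comparison 3 were higher with RLE scaling, 3 in the fit of those groups alone and 8 with protein-coding genes only, and under LPS 4 were higher with no filter (7). The cause of these shifts was not tested. The limit on the pseudogene share could be run only for LPS in WT and KO against WT under LPS, since no KO medium library met it, and it left WT medium with replicate 3 alone. The fit of the compared groups alone has no counterpart for the interaction.

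With each library left out in turn, the falls under LPS ran from 15 to 28 in WT and from 18 to 37 in KO, and the rises in KO from 0 to 1. In KO against WT the members higher ran from 2 to 7 and lower from 4 to 7 in medium, and under LPS from 4 to 8 and from 2 to 7. Interaction calls ran from 0 to 1 in each direction. With a replicate block 25 members fell in WT and 29 in KO, and in KO against WT 5 were higher and 4 lower in medium and 6 and 4 under LPS. The labels do not say what the replicate numbers share, and same-numbered libraries did not all deviate together: 18 pairs had correlations from -0.366 to 0.391, with 11 above 0.1, and 6 of 12 libraries correlated best with their own number. Depth did not limit detection of any member, since all passed the filter. The 3 libraries of each group limit the precision.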
